A study of Mus musculus with 9 samples.

Results

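Transcripts of 3 fibroblast growth factor (FGF) receptors and 7 genes that respond to or limit ERK signalling were followed in the mouse lambdoidal junction, the seam where the facial prominences meet to form the upper lip and primary palate. The 10 genes (Fgfr1, Fgfr2, Fgfr3, Spry1, Spry2, Spry4, Dusp6, Dusp9, Etv4 and Etv5) were taken by gene symbol from the 54532 genes of the deposited count table, and each symbol matched 1 row. Lambdoidal junction tissue was dissected from C57BL/6J mouse embryos at embryonic days 10.5 (E10.5), 11.5 (E11.5) and 12.5 (E12.5), and bulk RNA sequencing was performed on 3 libraries per stage. No genotype or treatment distinguished the groups, so stage was the only factor named in the labels. Each library was a pool of embryos of 1 stage, so that the spread between libraries was a spread between pools and not between single embryos.

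FGF ligands bind receptor tyrosine kinases, which pass the signal through docking proteins, RAS and RAF to the kinases MEK and ERK. Active ERK switches on both effectors, such as the ETS transcription factors Etv4 and Etv5, and inhibitors that dampen the same pathway, such as the Sprouty proteins and the dual-specificity phosphatases Dusp6 and Dusp9, so the transcripts of these genes are widely used as readouts of FGF/ERK activity. In the developing face, FGF8 and other ligands are made by the surface epithelium and act on the neural crest-derived mesenchyme, where they promote survival and outgrowth of the prominences.

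Total counts ran from 16959676 to 17756251 reads per library at E10.5, from 18280441 to 20836804 at E11.5 and from 16581009 to 17919664 at E12.5, and 30199 genes had at least 1 read. E10.5 replicate 3 stood apart from the other libraries of its stage. The summed level of 10 facial mesenchyme markers, in CPM (counts scaled to library size, here after TMM normalization), was 1530 in that library against 2960 in each of the other E10.5 libraries, and that of 13 surface epithelium markers was 1070 against 596 and 682. Its deviations from the stage mean were also related to the GC content of the genes, with a Spearman correlation across genes of -0.55, against 0.44 and 0.47 for replicates 1 and 2. Over the stages, the mesenchyme sum ranged from 1530 to 2960 CPM, from 4560 to 5040 and from 5420 to 6090. Between the first stages, 6 of its 10 markers rose, among them the most abundant, Col3a1, a fibrillar collagen (log2 fold change 1.2 ± 0.30 SE). The sum of 11 forebrain and eye neuroepithelium markers ranged from 370 to 496 CPM, from 140 to 152 and from 173 to 223, and 10 of the 11 fell in E11.5 vs. E10.5, the most abundant being Sox2, a transcription factor of neural progenitors (-1.30 ± 0.15). The epithelium sum ranged from 596 to 1070 CPM, from 611 to 632 and from 853 to 935, and between the first stages 3 of its 13 markers rose (Krt5, Krt14 and Krt15, keratins of the basal layer) and 2 fell (Krt8 and Krt18, keratins of simple epithelia). Krt5 rose by 4.03 and Krt14 by 0.97 on the log2 scale, reaching 151 and 158 CPM at E12.5, and Epcam, a pan-epithelial marker, was at 110, 90.3 and 108 CPM over the stages (adjusted p = 0.407 in the first interval). Endothelial markers summed to 122 CPM in E10.5 replicate 3 and to 275 to 336 in the other libraries, and over all 9 libraries those of neurons summed to 179 to 329, of red blood cells to 3470 to 5880, of macrophages to 22.7 to 41.9 and of cartilage and bone to 521 to 998. No marker of these lists was at 0 in all libraries. The part of this changing tissue makeup in the results on the 10 genes was not tested, and in bulk RNA fewer cells of a type cannot be told apart from less RNA per cell.

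**Figure D1:**
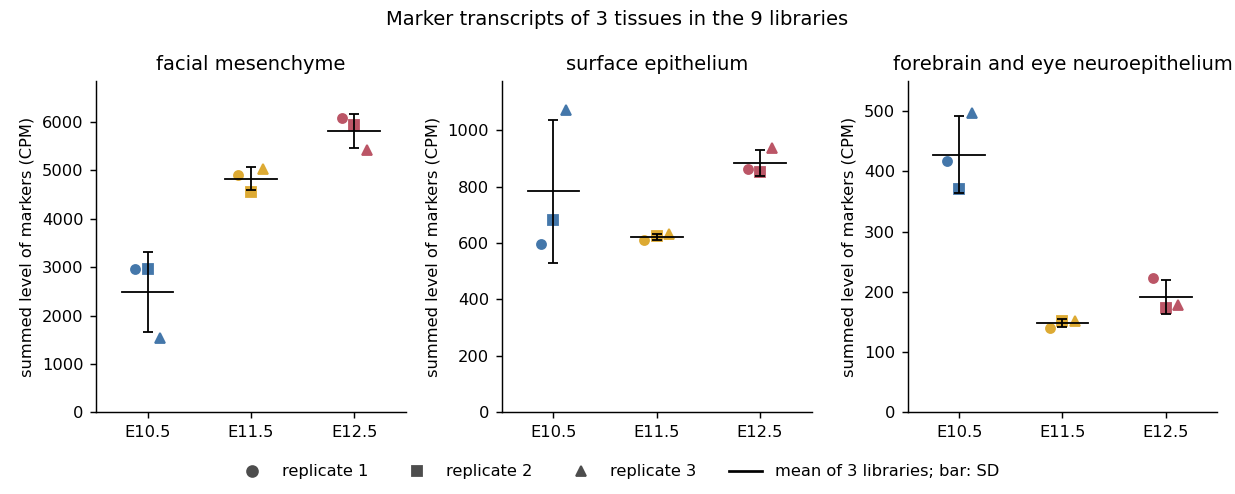
Summed level (CPM, TMM-scaled, y axis) of the marker transcripts of facial mesenchyme, surface epithelium, and forebrain and eye neuroepithelium in the 9 libraries by stage (x axis); points are libraries, lines the mean of 3 and bars the SD. E10.5 replicate 3 (triangle) has the lowest mesenchyme sum (1530) and the highest epithelium sum (1070), and the neuroepithelium sum is at least 370 in every E10.5 library and at most 223 in every later one.

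The genes lie on 10 different chromosomes of the GRCm38/mm10 assembly used for the files. Fgfr1 (ENSMUSG00000031565) was annotated at chr8:25513654-25575718 on the + strand and Fgfr3 (ENSMUSG00000054252) at chr5:33721674-33737068 on the + strand. Fgfr2 (ENSMUSG00000030849) was annotated at chr7:130162451-133123350 on the - strand, a model that spans many other genes and shares 3.0% of its exonic bases with Ctbp2 on the same strand. Spry1 (ENSMUSG00000037211) was at chr3:37639947-37644598 (+) and Spry2 (ENSMUSG00000022114) at chr14:105891947-105896819 (-). Dusp6 (ENSMUSG00000019960) was at chr10:99263231-99267489 (+), Dusp9 (ENSMUSG00000031383) at chrX:73639419-73643514 (+), Etv4 (ENSMUSG00000017724) at chr11:101769742-101785371 (-) and Etv5 (ENSMUSG00000013089) at chr16:22381309-22439719 (-). Antisense genes covered 24.4% of the exonic bases of Spry1 (Gm42922), 13.9% of those of Fgfr3 (G630022F23Rik) and 1.7% of those of Fgfr1 (Gm16159), and the strand setting of the counting was not given in the sources used here, so reads of these genes and of their antisense partners cannot be told apart there.

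Promoter windows of 250 bases upstream of an annotated start (RefSeq, GRCm38.p6) were matched for 6 of the 10 genes in 8 windows, and Fgfr1, Spry4, Dusp9 and Etv4 were not matched. Each window was searched on both strands for CGGAAG (an ETS motif, the kind of site bound by the Etv proteins themselves), TGANTCA (AP-1), TGACG (a CRE half-site) and CCAAT (the CCAAT box). Of these, 4 windows are shown, those of Dusp6 and Etv5, whose transcripts fell, and of Spry1 and Spry2, whose transcripts did not pass the test, so that ERK-responsive genes with different courses can be set side by side. They are chr10:99262981-99263230 (+), chr16:22439571-22439820 (-), chr3:37639697-37639946 (+) and chr14:105896820-105897069 (-), written 5′ to 3′ on the strand of the gene with motif matches in capitals.
Dusp6: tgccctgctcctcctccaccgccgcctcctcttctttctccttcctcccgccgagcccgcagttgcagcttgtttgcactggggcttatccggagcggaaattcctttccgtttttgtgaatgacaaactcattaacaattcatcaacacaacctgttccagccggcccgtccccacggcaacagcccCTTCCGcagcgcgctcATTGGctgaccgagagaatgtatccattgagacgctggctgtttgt
Etv5: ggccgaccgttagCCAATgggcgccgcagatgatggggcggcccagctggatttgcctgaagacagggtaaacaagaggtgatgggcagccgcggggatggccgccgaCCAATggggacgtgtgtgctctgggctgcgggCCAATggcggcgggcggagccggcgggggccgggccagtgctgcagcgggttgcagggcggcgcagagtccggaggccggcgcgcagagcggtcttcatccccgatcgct
Spry1: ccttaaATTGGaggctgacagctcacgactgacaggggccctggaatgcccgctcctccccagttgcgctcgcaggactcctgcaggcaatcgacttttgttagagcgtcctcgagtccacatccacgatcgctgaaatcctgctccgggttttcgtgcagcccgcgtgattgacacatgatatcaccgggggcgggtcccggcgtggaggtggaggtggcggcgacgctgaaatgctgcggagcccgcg
Spry2: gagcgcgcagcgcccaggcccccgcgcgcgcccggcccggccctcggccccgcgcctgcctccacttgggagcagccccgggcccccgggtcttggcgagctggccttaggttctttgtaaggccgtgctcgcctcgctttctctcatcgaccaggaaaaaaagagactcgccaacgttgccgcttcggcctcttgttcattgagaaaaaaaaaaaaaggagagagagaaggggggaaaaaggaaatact
The Dusp6 window held 1 ETS match, read on the opposite strand as CTTCCG, and 1 CCAAT box, also in the opposite direction (ATTGG). The Etv5 window shown held 3 CCAAT boxes, and a second Etv5 window, not shown (chr16:22438369-22438618, - strand), held 1. The Spry1 window held 1 CCAAT box, and none of the motifs matched in the Spry2 window. Of all 32851 mouse promoter windows of this length, 13.6% held the ETS motif, 33.8% a CCAAT box, 17.8% the CRE half-site and 6.75% the AP-1 motif. The matches are a description of these letters only.

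Across the 3 stages, the receptors among the 10 genes rose and the phosphatases and ETS factors among them fell. No change of the 3 Sprouty transcripts passed the test, although Spry4 passed under some alternative settings. A test was taken as passed at an adjusted p of at most 0.05 (edgeR quasi-likelihood test, Benjamini-Hochberg over all genes tested), and a gene was called a differentially expressed gene (DEG) when its absolute log2 fold change was also at least 1. In E12.5 vs. E10.5, 7 of the 10 genes passed, where 24.6% of all 15899 genes tested did. The 3 that were higher were Fgfr1, Fgfr2 and Fgfr3 (14.0% of all genes were higher) and the 4 that were lower were Dusp6, Dusp9, Etv4 and Etv5 (10.5% of all genes were lower). Dusp9 was the only DEG of the 10, where 15.0% of all genes were DEGs. The same 7 genes, and not the 3 Sprouty genes, passed a test of any difference among the 3 stages on the 9 libraries, which 28.3% of 16375 genes passed. The stage comparisons share libraries and are not independent of one another.

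**Figure D2:**
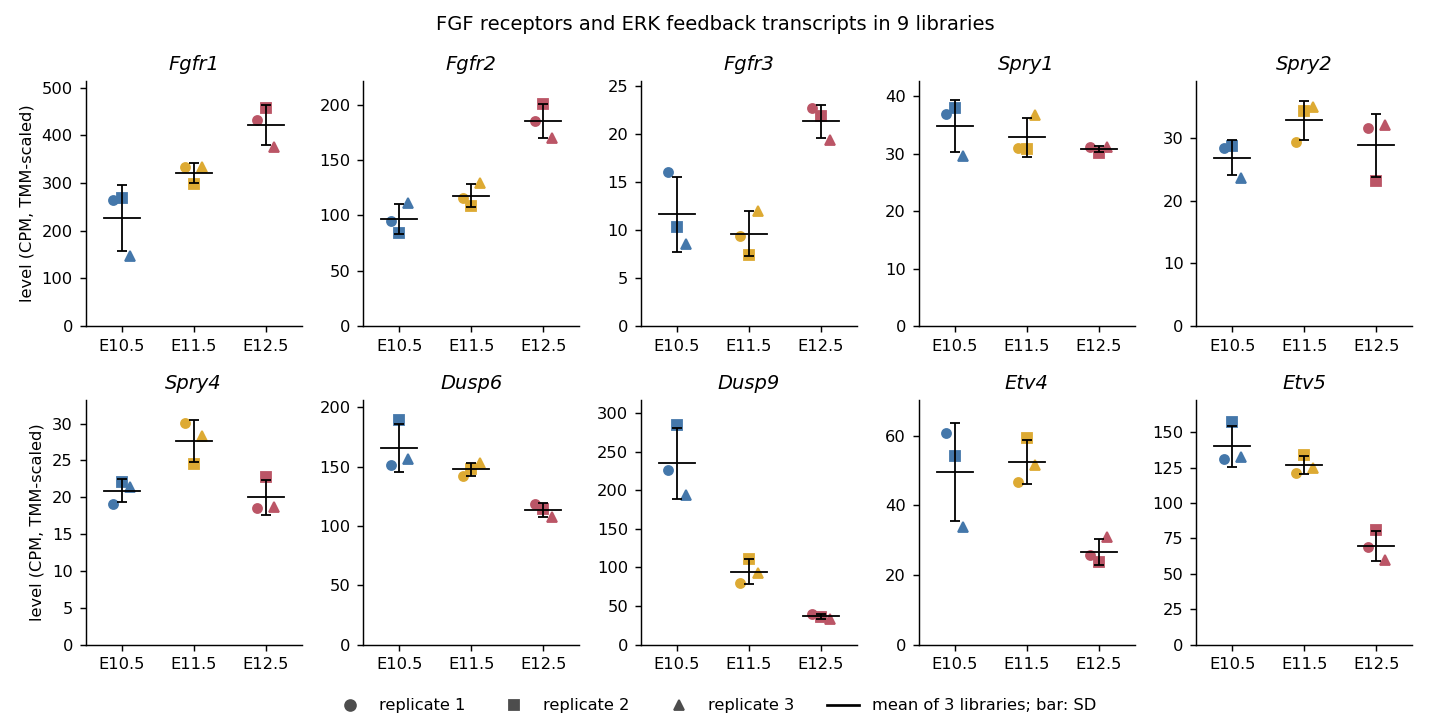
Level (CPM, TMM-scaled, y axis from 0) of each of the 10 transcripts in the 9 libraries by stage (x axis); symbols mark the replicate number, lines the mean of 3 libraries and bars the SD. The 3 receptors are highest at E12.5, Dusp9 drops at each stage from a mean of 234.7 to 36.5, Etv4 and Etv5 drop at E12.5, and the Sprouty transcripts stay within 18.5 to 38.0 CPM in all libraries.

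More of the genes passed in the second interval than in the first. In E11.5 vs. E10.5 only Dusp9 passed (1 of 10, against 11.8% of 15708 genes tested) and it was also the only DEG (6.07% of all genes). In E12.5 vs. E11.5, 6 of the 10 passed (12.2% of 15808 genes tested): Fgfr2 and Fgfr3 were higher (7.61% of all genes) and Dusp6, Dusp9, Etv4 and Etv5 were lower (4.57%). Of these, Fgfr3 and Dusp9 were DEGs, where 5.1% of all genes were. The libraries of the 2 stages did not overlap for 4 of the 10 genes in E11.5 vs. E10.5 (36.7% of all genes), for 8 in E12.5 vs. E11.5 (35.3%) and for 7 in E12.5 vs. E10.5 (42.4%). Without E10.5 replicate 3, the number that passed in E11.5 vs. E10.5 was 4, since Fgfr1, Fgfr2 and Spry4 then passed too, but 39.6% of 16263 genes tested also passed under that setting.

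**Figure D3:**
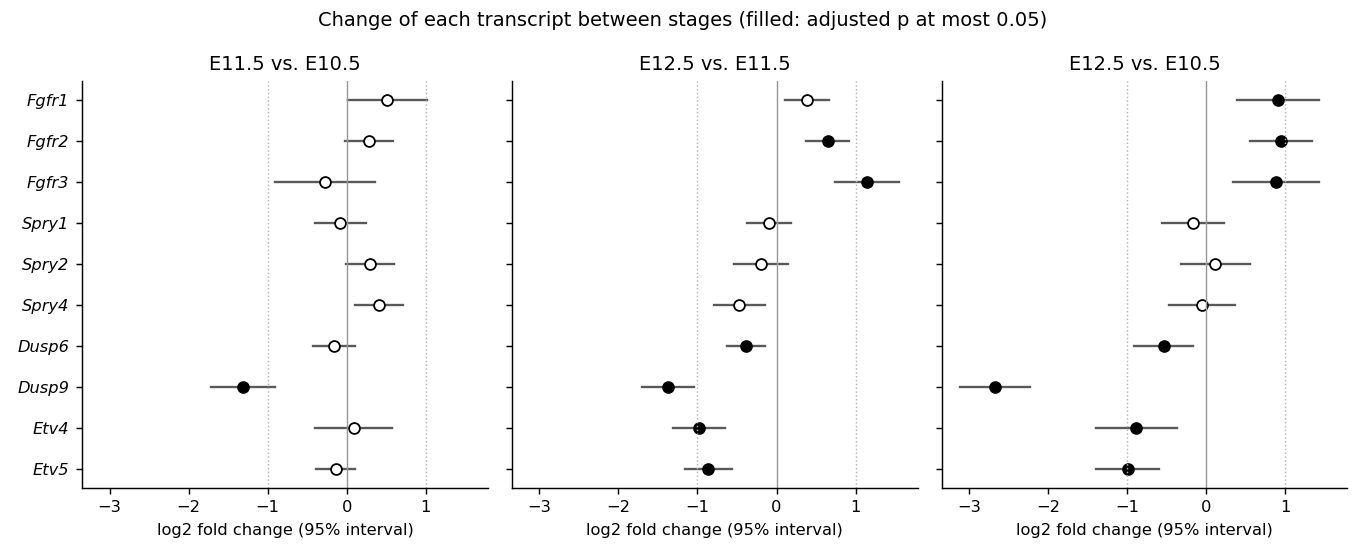
Log2 fold change (x axis) with its 95% interval for each of the 10 transcripts (y axis) in the 3 comparisons; filled points passed the test (adjusted p of at most 0.05) and dotted lines mark a log2 fold change of 1 in either direction. Dusp9 is the one filled point in E11.5 vs. E10.5, and 6 and 7 points are filled in the other comparisons, the receptors to the right of 0 and the phosphatases and ETS factors to the left.

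Fgfr1 encodes an FGF receptor that is widely expressed in mesenchyme. Its level was 263.8, 268.1 and 146.0 CPM in the E10.5 libraries, 332.6, 297.3 and 333.9 in the E11.5 libraries and 432.2, 458.0 and 375.2 in the E12.5 libraries. The stages did not overlap, and E10.5 replicate 3 was far below the other E10.5 libraries, as it was for the mesenchyme markers. Fgfr1 rose in E12.5 vs. E10.5 (log2 fold change 0.91 ± 0.24 SE, a 1.88-fold increase, adjusted p = 0.0175), and the change was 0.68 (adjusted p = 0.0113) without E10.5 replicate 3. The call was lost without E12.5 replicate 1 (adjusted p = 0.0678) or 2 (adjusted p = 0.0593). Over single intervals the changes were 0.51 ± 0.22 (adjusted p = 0.169) and 0.39 ± 0.13 (adjusted p = 0.0696). The first passed without E10.5 replicate 3 (0.28, adjusted p = 0.00729) and with the GC trend removed (0.56, adjusted p = 0.0266, or 0.58 and 0.0230 with a replicate block). The second passed under upper quartile normalization (adjusted p = 0.0396), with DESeq2 (0.0372) and without E12.5 replicate 3 (0.0199).

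Fgfr2, whose splice forms serve as receptors in both epithelium and mesenchyme, was counted here as a single gene. It was at 94.5, 84.5 and 111.5 CPM in the E10.5 libraries, 115.8, 108.8 and 129.1 in the E11.5 libraries and 185.3, 201.2 and 170.4 in the E12.5 libraries. All E12.5 libraries lay above all others, while E10.5 and E11.5 overlapped through E10.5 replicate 3. Fgfr2 rose in E12.5 vs. E11.5 (0.65 ± 0.12, 1.57-fold, adjusted p = 0.00726) and in E12.5 vs. E10.5 (0.95 ± 0.18, 1.93-fold, adjusted p = 0.00313). In E11.5 vs. E10.5 its change was 0.29 ± 0.13 (adjusted p = 0.201), or 0.40 (adjusted p = 0.00240) without E10.5 replicate 3. The second-interval call was lost without E11.5 replicate 2 (adjusted p = 0.0661).

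Fgfr3, best known for restraining the growth of cartilage and bone, was the least abundant receptor. Its level was 16.0, 10.3 and 8.55 CPM in the E10.5 libraries, 9.42, 7.36 and 12.01 in the E11.5 libraries and 22.7, 21.9 and 19.3 in the E12.5 libraries, from 138 to 406 reads per library. The first 2 stages overlapped and every E12.5 library was above them. Fgfr3 was a DEG in E12.5 vs. E11.5 (1.146 ± 0.18, 2.21-fold, adjusted p = 0.00294) and rose in E12.5 vs. E10.5 (0.88 ± 0.25, 1.84-fold, adjusted p = 0.0254). Without E11.5 replicate 2 the first change was 0.97 (adjusted p = 0.0166), short of the fold change required of a DEG. The call in E12.5 vs. E10.5 was lost without E10.5 replicate 2 (adjusted p = 0.0849) or without E12.5 replicate 1, 2 or 3 (adjusted p = 0.0981, 0.0665 and 0.0554). In E11.5 vs. E10.5 its change was -0.27 ± 0.28 (adjusted p = 0.565).

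The Sprouty genes encode inhibitors that act between the receptors and ERK. Spry1 was at 36.9, 38.0 and 29.6 CPM in the E10.5 libraries, 30.9, 30.8 and 36.8 in the E11.5 libraries and 31.2, 30.2 and 31.2 in the E12.5 libraries, so all stages overlapped. Its E12.5 vs. E10.5 log2 fold change was -0.17, with a 95% interval of -0.56 to 0.22 (adjusted p = 0.535). Spry2 was at 28.3, 28.7 and 23.6 CPM, then 29.3, 34.3 and 34.9, then 31.6, 23.1 and 32.0. Its E11.5 libraries were all above those of E10.5, the E12.5 libraries overlapped both, and the E12.5 vs. E10.5 change was 0.11 (interval -0.32 to 0.55, adjusted p = 0.725). These intervals bound the changes of Spry1 and Spry2 over the 2 days and do not show that the levels were equal.

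Spry4 (ENSMUSG00000024427, on the - strand at chr18:38586268-38601268) was at 19.1, 22.1 and 21.4 CPM in the E10.5 libraries, 30.0, 24.5 and 28.3 in the E11.5 libraries and 18.5, 22.7 and 18.7 in the E12.5 libraries. Every E11.5 library was above every library of the other stages. Neither step passed the test, with 0.41 ± 0.13 in E11.5 vs. E10.5 (adjusted p = 0.0883) and -0.47 ± 0.14 in E12.5 vs. E11.5 (adjusted p = 0.0575). Of 15 alternative settings, 2 brought the first past the threshold, leaving out E10.5 replicate 3 (0.43, adjusted p = 0.0106) and removing the GC trend (0.40, adjusted p = 0.0493). For the second, 3 did so: DESeq2 (-0.49, adjusted p = 0.0320), no filter on low counts (-0.49, adjusted p = 0.0303) and leaving out E12.5 replicate 2 (-0.58, adjusted p = 0.00896). Between the end stages the change was -0.05 (interval -0.47 to 0.36, adjusted p = 0.868).

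Dusp6 encodes a cytoplasmic phosphatase selective for ERK. Of the 8 promoter windows searched, from 6 of the 10 genes, 1 held the ETS motif, that of Dusp6. This is near the 13.6% of all promoter windows that held it, so the match does not set Dusp6 apart. The level of Dusp6 was 151.4, 189.1 and 156.8 CPM in the E10.5 libraries, 142.3, 148.1 and 152.8 in the E11.5 libraries and 118.5, 114.5 and 107.4 in the E12.5 libraries. All E12.5 libraries were below all others and the first 2 stages overlapped. Dusp6 fell in E12.5 vs. E11.5 (-0.39 ± 0.11, adjusted p = 0.0450) and in E12.5 vs. E10.5 (-0.54 ± 0.17, 1.45-fold lower, adjusted p = 0.0386), the smallest change among those of the 10 genes that passed in each comparison. Of the 15 alternative settings, 7 kept the first call and 8 the second. Leaving out any of E11.5 replicates 1, 2 and 3 or E12.5 replicate 1 ended the first (adjusted p = 0.116, 0.155, 0.171 and 0.0874), and leaving out E10.5 replicate 1 or 2 or E12.5 replicate 1, 2 or 3 ended the second (adjusted p = 0.0720, 0.197, 0.108, 0.0659 and 0.0938).

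Dusp9, an X-linked gene for a related ERK phosphatase, had the largest change of the 10 genes in each of the 3 comparisons. Its level was 226.4, 284.2 and 193.6 CPM in the E10.5 libraries, 79.1, 111.1 and 92.5 in the E11.5 libraries and 40.2, 35.8 and 33.6 in the E12.5 libraries. No stage overlapped another. Dusp9 was a DEG in E11.5 vs. E10.5 (-1.31 ± 0.18, 2.48-fold lower, adjusted p = 0.00406), in E12.5 vs. E11.5 (-1.37 ± 0.15, 2.59-fold lower, adjusted p = 2.96e-04) and in E12.5 vs. E10.5 (-2.67 ± 0.20, 6.38-fold lower). It passed in all 15 alternative settings of each comparison, with E12.5 vs. E10.5 changes between -2.79 and -2.52. The forebrain and eye markers fell beside it in the first interval, but in the second their sum went from 140 to 152 CPM at E11.5 to 173 to 223 CPM at E12.5 while Dusp9 fell again. Xist, the transcript of the inactive X chromosome, varied among the pools from 251 to 285 CPM, from 313 to 729 and from 75.6 to 463, and its part in the level of Dusp9 was not tested.

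Etv4 and Etv5 encode PEA3-type ETS factors induced by FGF signalling. Etv4 was at 60.9, 54.2 and 33.7 CPM in the E10.5 libraries, 46.7, 59.2 and 51.6 in the E11.5 libraries and 25.6, 23.6 and 30.8 in the E12.5 libraries. The first 2 stages overlapped, and E10.5 replicate 3 came close to the E12.5 libraries. Etv4 fell in E12.5 vs. E11.5 (-0.98 ± 0.15, 1.98-fold lower, adjusted p = 0.00205) and in E12.5 vs. E10.5 (-0.88 ± 0.23, adjusted p = 0.0187), the latter change being -1.10 (adjusted p = 0.00119) without E10.5 replicate 3. Its second-interval change reached that of a DEG in 6 alternative settings, among them removal of the GC trend (-1.13). Leaving out E10.5 replicate 1 or 2, or E12.5 replicate 1 or 2, ended the E12.5 vs. E10.5 call (adjusted p = 0.0684, 0.0530, 0.0806 and 0.0698). In E11.5 vs. E10.5 its change was 0.09 ± 0.21 (adjusted p = 0.827).

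Etv5 was the more abundant of the pair. Its level was 131.1, 156.9 and 132.3 CPM in the E10.5 libraries, 121.3, 133.8 and 124.9 in the E11.5 libraries and 68.8, 80.9 and 59.9 in the E12.5 libraries. Every E12.5 library was far below every earlier one. Etv5 fell in E12.5 vs. E11.5 (-0.86 ± 0.13, 1.82-fold lower, adjusted p = 0.00246) and in E12.5 vs. E10.5 (-0.995 ± 0.18, 1.99-fold lower, adjusted p = 0.00256), just short of the fold change required of a DEG. Both calls were kept in all 15 alternative settings, and in 9 of them, DESeq2 among them, Etv5 was a DEG between the end stages. In E11.5 vs. E10.5 its change was -0.14 ± 0.11 (adjusted p = 0.438).

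Whether the second interval differed from the first was tested directly on all 9 libraries, as the change in E12.5 vs. E11.5 minus that in E11.5 vs. E10.5. None of the 10 genes passed (0 of 10 by edgeR's quasi-likelihood test, against 1.18% of 16375 genes), and 4 had an unadjusted p under 0.05. Fgfr3 had the largest positive difference (1.43 ± 0.43 on the log2 scale, adjusted p = 0.166). Etv4 (-1.06 ± 0.35, adjusted p = 0.216), Spry4 (-0.87 ± 0.26, adjusted p = 0.163) and Etv5 (-0.71 ± 0.25, adjusted p = 0.243) had negative ones. The difference of Dusp9 was -0.05, with an interval of -0.69 to 0.59. Fgfr3 passed without E10.5 replicate 3 (1.56, adjusted p = 0.0471). A difference in timing between the genes is therefore a description of which comparisons passed and not a tested result.

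Within each library, the shares of the 3 receptors were taken per kb of gene length, so that they do not depend on scaling between libraries. Fgfr1 made up 70.1%, 73.9% and 55.2% of receptor reads per kb in the E10.5 libraries, 72.9%, 72.3% and 70.5% in the E11.5 libraries and 67.5%, 67.3% and 66.4% in the E12.5 libraries. Fgfr2 made up 24.0%, 22.3% and 40.3%, then 24.3%, 25.3% and 26.0%, then 27.7%, 28.3% and 28.8%. Fgfr1 was thus the main receptor transcript in every library, with its lowest share, and the highest of Fgfr2, in E10.5 replicate 3. Fgfr3 made up 5.88%, 3.91% and 4.46% at E10.5, 2.85%, 2.47% and 3.50% at E11.5 and 4.88%, 4.44% and 4.72% at E12.5, with the E11.5 libraries below all others. Of 9 comparisons of shares between stages, 4 did not overlap, each with an exact two-sided permutation p = 0.1, the smallest that 3 against 3 libraries allow (adjusted p = 0.225 over the 9 tests). Between E10.5 and E12.5 the mean share moved by 0.681 percentage points for Fgfr1, -0.611 for Fgfr2 and -0.07 for Fgfr3.

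**Figure D4:**
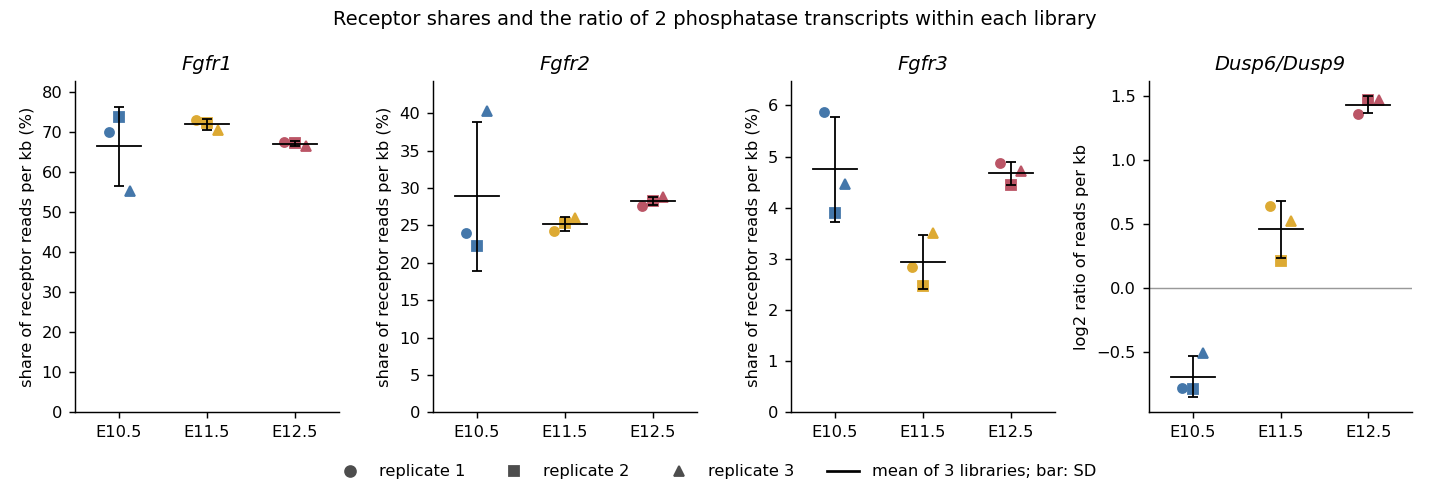
Share of each receptor in the summed receptor reads per kb (%, y axis from 0, 3 left panels) and log2 ratio of Dusp6 to Dusp9 reads per kb (right panel) in the 9 libraries by stage; symbols mark the replicate number, lines the mean of 3 libraries and bars the SD. The Fgfr1 share is lowest (55.2%) in E10.5 replicate 3, and the Dusp6/Dusp9 ratio is below 0 in every E10.5 library and above 0 in every later one.

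The order of the 2 phosphatase transcripts was reversed between E10.5 and the later stages. The log2 ratio of Dusp6 to Dusp9, per kb within each library, was -0.78, -0.79 and -0.51 at E10.5, 0.65, 0.21 and 0.52 at E11.5 and 1.36, 1.47 and 1.47 at E12.5, that is 1.62 times more Dusp9 than Dusp6 at E10.5 and 2.7 times more Dusp6 than Dusp9 at E12.5. No stage overlapped another, with an exact two-sided permutation p = 0.1 for each comparison (adjusted p = 0.3 over 12 tests of 4 ratios). Etv4 to Etv5 showed no such turn: its mean log2 ratio was -1.14 ± 0.43 (SD, n = 3), -0.87 ± 0.10 and -0.98 ± 0.41, and all stages overlapped. Spry4 to Spry2 also overlapped throughout, with means of -1.5, -1.39 and -1.66. Spry1 to Spry2 went from -0.11 ± 0.04 at E10.5 to -0.48 ± 0.13 at E11.5 without overlap (exact permutation p = 0.1, adjusted p = 0.3) and was -0.37 ± 0.24 at E12.5.

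The order of the 10 transcripts per kb of gene length changed with these shifts. At E10.5, Dusp9 led with 86.2 ± 16.9 CPM per kb (SD, n = 3), followed by Dusp6 with 52.9 ± 6.51 and Etv5 with 34.1 ± 3.55, and each of these was above the next gene in all libraries. Fgfr1 (22.9), Etv4 (16.0), Spry2 (12.9), Spry1 (11.98) and Fgfr2 (9.38) followed, and neighbours among these overlapped. At E11.5, Dusp6 was first with 47.2 ± 1.68 CPM per kb, and Dusp9 (34.6), Fgfr1 (32.5) and Etv5 (30.9) overlapped behind it. At E12.5, Fgfr1 was first with 42.7 ± 4.29 and Dusp6 second with 36.2 ± 1.79, without overlap, while Fgfr2 (18.0), Etv5 (17.0), Spry2 (13.8) and Dusp9 (13.4) overlapped as neighbours. Spry4 and Fgfr3 were the lowest at every stage, Spry4 at 4.55, 6.02 and 4.36 CPM per kb and Fgfr3 at 1.62, 1.34 and 2.97.

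For the 2 genes that were DEGs, the transcripts with the most similar course were searched among 16374 genes, by the root mean square difference of centred log2 CPM over the 9 libraries. Closest to Dusp9 were Sall4 (0.181), a stem cell transcription factor, Eno3 (0.183), the muscle form of enolase, and Arid3b (0.214), a DNA-binding protein. Their mean levels at the successive stages were 75.9, 31.2 and 9.26 CPM for Sall4, 71.8, 29.6 and 12.9 for Eno3 and 99.8, 42.9 and 18.0 for Arid3b. Closest to Fgfr3 were 1700007K13Rik (0.17), Vstm5 (0.174) and Adgrb3 (0.184), with means between 0.344 and 4.31 CPM. The 9 points share their libraries, and the likeness is a description only.

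The genes around these 10 in the pathway were examined in 6 lists. Of 22 FGF ligands, 16 passed the filter on low counts in E12.5 vs. E10.5. Of these 16, 5 rose and 3 fell (14.0% and 10.5% of all genes), with a median log2 fold change of 0.383, where that of all genes tested was -0.006. Among those that rose, Fgf7 and Fgf20 were at most 0.434 CPM at E10.5 and at least 0.835 and 0.917 CPM at E12.5. They passed the filter through their E12.5 libraries alone, so they could only be found higher. Their part in the count and the median is therefore no evidence of a rise of the list. Fgf8, the chief epithelial ligand of the early face, fell from 38.3 ± 5.77 CPM (SD, n = 3) at E10.5 to 15.7 ± 2.47 and 5.40 ± 1.08 (E12.5 vs. E10.5: -2.82 ± 0.23, adjusted p = 1.34e-05). Fgf15 went from 12.5 ± 8.98 to 1.52 ± 0.31 and 0.737 ± 0.08 CPM (-4.06 ± 0.51, adjusted p = 2.33e-04), and it fell in the first interval with the forebrain and eye markers, whose part was not tested. Fgf17, a ligand of the Fgf8 subfamily, was at 7.20, 8.37 and 3.67 CPM and fell in the second interval (-1.20 ± 0.21, adjusted p = 0.00482). The ligands that rose included Fgf2 (3.0, 10.9 and 19.2 CPM, 2.68 ± 0.26), Fgf11 (2.62, 4.89 and 8.88 CPM, 1.77 ± 0.28) and Fgf7 (0.223, 0.380 and 1.31 CPM, 2.55 ± 0.60), of which Fgf11 belongs to the intracellular FGF-related proteins. Fgf18, chosen after its values were seen, was at 2.48, 0.667 and 3.78 CPM, falling by 1.88 and then rising by 2.48 on the log2 scale (adjusted p = 0.0145 and 5.30e-04). Leaving out 1 library ended the first-interval calls of Fgf15 (E11.5 replicate 1 or 3, adjusted p = 0.0651 and 0.0577) and Fgf18 (E11.5 replicate 1, 2 or 3, adjusted p = 0.0774, 0.0578 and 0.0830) and the E12.5 vs. E10.5 calls of Fgf17 (E10.5 replicate 1 or E12.5 replicate 2 or 3, 0.0694, 0.0653 and 0.0673) and Fgf7 (E12.5 replicate 1, 0.0662).

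**Figure D5:**
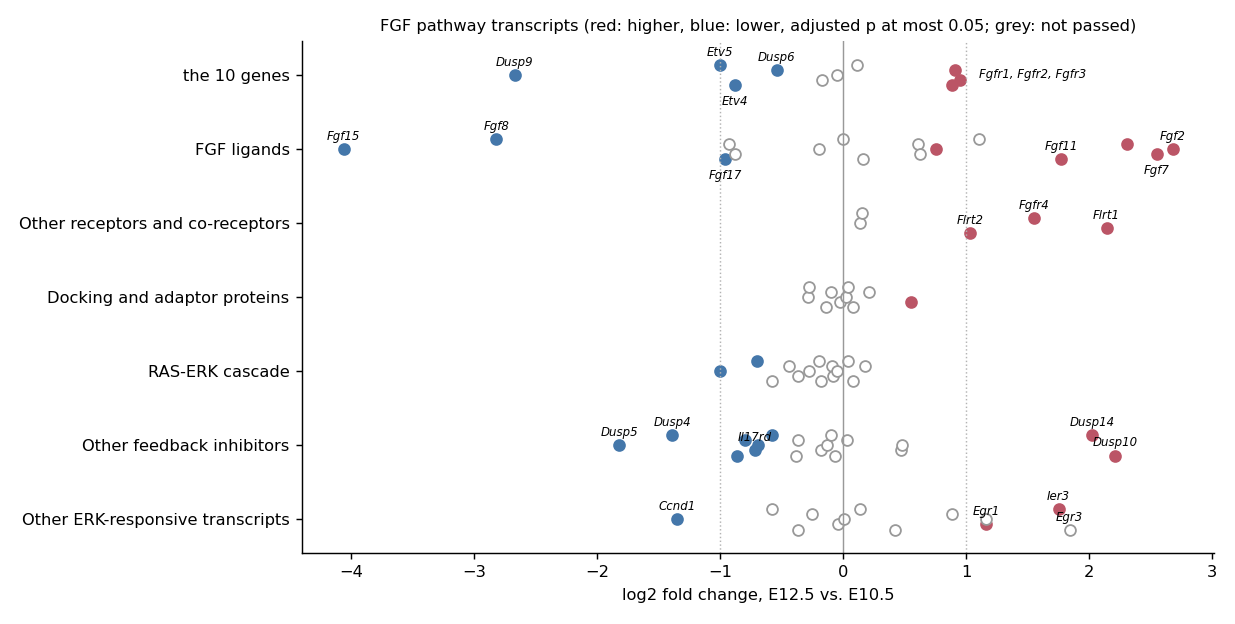
Log2 fold change in E12.5 vs. E10.5 (x axis) of the 10 transcripts and of each gene tested in 6 lists of pathway genes (y axis); red and blue points passed the test (adjusted p of at most 0.05), grey open points did not, dotted lines mark a log2 fold change of 1 in either direction, and names are given for the 10 genes that passed and for those named by rule. Docking proteins and RAS-ERK kinases lie near 0, while ligands and feedback inhibitors spread from -4.06 to 2.68.

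The other receptors and co-receptors that passed were, like Fgfr1 to Fgfr3, higher at E12.5. Of 7, 5 were tested between the end stages and 3 rose, all DEGs (15.0% of all genes were DEGs). These were Flrt1 (2.14 ± 0.41, adjusted p = 0.00376) and Flrt2 (1.03 ± 0.23, adjusted p = 0.00767), membrane proteins of a family that modulates FGF receptors, and Fgfr4 (0.750, 1.5 and 2.21 CPM, 1.55 ± 0.41, adjusted p = 0.0184). The call of Fgfr4 was lost without E10.5 replicate 1 (adjusted p = 0.0529) or E12.5 replicate 1, 2 or 3 (0.0602, 0.0520 and 0.0612). The receptor-like Fgfrl1 was at 53.2 and 58.6 CPM at the end stages (0.15 ± 0.18, adjusted p = 0.598). For all genes tested the median log2 fold change was -0.006, and for these 5 it was 1.034.

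In the signal-transducing core, 1 of 10 docking and adaptor genes and 2 of 14 genes of the RAS-ERK cascade passed between the end stages, where 24.6% of all genes did. The docking gene was Gab1, a scaffold downstream of receptor kinases, which rose by 0.55 ± 0.16 (adjusted p = 0.0324). Both RAS-ERK genes were lower: Rps6ka2, an ERK-activated kinase (-0.997 ± 0.19, adjusted p = 0.00401), and Braf, the RAF kinase (-0.70 ± 0.21, adjusted p = 0.0303). Neither list held a DEG in any comparison by edgeR, although DESeq2 called 0 docking genes and 1 RAS-ERK gene a DEG in E12.5 vs. E10.5, and in the 3 comparisons 1, 1 and 1 docking genes and 2, 6 and 4 RAS-ERK genes had an unadjusted p under 0.05. The docking list had a median log2 fold change of -0.004 and the RAS-ERK list one of -0.193. These 3 genes were named after their values were seen. The call of Gab1 was lost without any 1 of 5 libraries, all but E10.5 replicate 3 (adjusted p from 0.0620 to 0.153), and that of Braf without E10.5 replicate 1 or 2 or E12.5 replicate 1 or 3 (0.0548, 0.0694, 0.111 and 0.0917).

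Of 18 other feedback inhibitors, 7 were lower and 2 higher between the end stages, where 10.5% of all genes were lower and 14.0% higher. The difference from all genes was not tested. The list had a median log2 fold change of -0.274. Dusp5, a nuclear ERK phosphatase, fell from 19.2 to 8.44 and 5.38 CPM (-1.82 ± 0.22, adjusted p = 2.18e-04), and Dusp4 fell from 40.0 to 26.8 and 15.2 CPM (-1.39 ± 0.35, adjusted p = 0.0153). Il17rd, the transmembrane inhibitor Sef, was at 152, 183 and 91.8 CPM and fell in the second interval (-1.001 ± 0.18, adjusted p = 0.00534). Dusp10 (3.10, 5.39 and 14.3 CPM, 2.21 ± 0.26) and Dusp14 (2.20, 3.85 and 8.88 CPM, 2.02 ± 0.29) rose. Dusp10 acts mainly on the stress kinases p38 and JNK rather than on ERK. The calls named for Dusp4 and Il17rd were lost without E12.5 replicate 1 (adjusted p = 0.0543 and 0.0521), and that of Dusp4 also without E12.5 replicate 3 (0.0790).

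Further transcripts that ERK can induce showed no common direction between the end stages. Of 15, 13 were tested in E12.5 vs. E10.5, with 2 higher and 1 lower (14.0% and 10.5% of all genes) and a median log2 fold change of 0.138. Ccnd1, cyclin D1, fell from 328 ± 18.6 to 222 ± 14.3 and 128 ± 30.0 CPM (-1.35 ± 0.20, adjusted p = 7.54e-04), in both intervals (adjusted p = 0.0127 and 0.0105). The immediate-early gene Egr1 (3.43, 4.55 and 7.64 CPM, 1.16 ± 0.34, adjusted p = 0.0282) and the stress-response gene Ier3 (1.21, 1.40 and 4.05 CPM, 1.75 ± 0.36, adjusted p = 0.00551) rose. Egr3 was a DEG in E12.5 vs. E11.5 (2.55 ± 0.49, adjusted p = 0.00777) at a mean of 0.155 and 0.933 CPM. Its E11.5 libraries were at most 0.161 CPM, so it passed the filter on low counts through its E12.5 libraries alone. It could thus only be found higher, and it is part of the counts and the median that follow. In E12.5 vs. E11.5, 4 of 13 genes of the list were higher and 2 lower (7.61% and 4.57% of all genes). Their median log2 fold change was 0.364, against 0.019 for all genes. The list had 3 DEGs there, all higher (5.1% of all genes were DEGs): Egr3, Ier3 (1.53 ± 0.27, adjusted p = 0.00521) and Fos (1.80 ± 0.35, adjusted p = 0.00872). Fos was named after its values were seen. So was Etv1, among the genes lower in E12.5 vs. E11.5 (-0.75 ± 0.14, adjusted p = 0.00785). Etv1 had risen in E11.5 vs. E10.5 (0.49 ± 0.12, adjusted p = 0.0416), and between the end stages its change was -0.25 ± 0.20 (adjusted p = 0.385). Its values with libraries left out are not given here. Leaving out 1 library ended the first-interval call of Ccnd1 (E11.5 replicate 1, 2 or 3, adjusted p = 0.0791, 0.0517 and 0.0812) and its second-interval call (E12.5 replicate 1, 0.0725), that of Egr1 (E10.5 replicate 1 or E12.5 replicate 1, 2 or 3, 0.0756, 0.0932, 0.0618 and 0.0859) and that of Egr3 (E11.5 replicate 2, 0.0511).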

How the data were processed

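Per the labels and the methods of the study, pooled lambdoidal junction tissue was sequenced from TruSeq libraries, and the authors mapped reads to GRCm38/mm10 with HISAT2 2.0.5 (version per the submitters' processing notes) and counted them per gene with featureCounts. The strand setting, the treatment of multi-mapping reads and the annotation release were not given in the sources used here. The deposited table holds raw read counts of 9 libraries, the only values tested here, and gene lengths. It also holds FPKM calculated by the authors, and their DESeq2 results (the mean normalized signal per stage, log2 fold changes, p-values and adjusted p-values), which were not used. Groups followed the stage in the labels, with 3 libraries each, and p-values measure the spread between these pools.

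For each pair of stages, all genes of its 6 libraries were fitted with edgeR 4.0.16 in R 4.3.3 (filterByExpr, TMM, glmQLFit, glmQLFTest), with Benjamini-Hochberg adjustment over all genes tested, and SE values were derived from the F statistic. CPM values use TMM-scaled library sizes of all 9 libraries and precision is limited by 3 libraries per stage. The fitting was tested on simulated data. Shares and ratios were compared by exact two-sided permutation tests. Named pathway genes were those called in at least 1 comparison, up to the 3 with the smallest p per list and direction, besides those said to be chosen after their values were seen. Of the marker lists, the most abundant gene of 3 lists was named. Alternatives covered normalization, filtering, DESeq2 1.42.0, 1 fit on 9 libraries, GC content (GENCODE vM21 genes), a replicate block, thresholds and leaving out each library. The 10 genes, the lists and the motifs were chosen with earlier results of these data known. Proteins were not analysed here.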

Additional observations from a re-analysis of the deposited data

How the results depend on the processing

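Over the 10 genes and 3 comparisons, 408 of 450 alternative values kept their direction and their side of the threshold, 26 lost and 12 gained the call, and 4 changed sign, all of them values that had not passed. These were Fgfr3 in E11.5 vs. E10.5 without E10.5 replicate 1 (0.029; -0.462 to 0.029 over the libraries left out), Etv4 in the same comparison without E10.5 replicate 3 (-0.124) and without E11.5 replicate 2 (-0.004; -0.124 to 0.259), and Spry4 in E12.5 vs. E10.5 under upper quartile normalization (0.006). Among the named pathway genes, Ier3 changed sign in E11.5 vs. E10.5 without E10.5 replicate 3 (-0.042, with -0.042 to 0.357 over the libraries left out).

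The number of the 10 genes called DEGs was 0 with glmTreat against a log2 fold change of 1 in the first interval, where it had been 1 (Dusp9), and 0 in the second, where it had been 2 (Dusp9 and Fgfr3). In E12.5 vs. E11.5 it was 6 with no fold threshold, 1 to 3 when a library was left out, with 1 without E11.5 replicate 2 (Fgfr3 lost) and 3 without E11.5 replicate 1 or 3 or E12.5 replicate 3, and 3 with no filter on low counts or with the GC trend removed, with and without the replicate block. The gene added in each of these 6 settings was Etv4, which took the number lower from 1 to 2. In E12.5 vs. E10.5 it was 2 in place of 1 under DESeq2 size factors, upper quartile normalization, removal of the GC trend, DESeq2 and 1 fit on 9 libraries, 7 with no fold threshold, and 1 to 4 when a library was left out.

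The number that passed the adjusted p in E11.5 vs. E10.5 was 3 with the GC trend removed, and 1 to 4 when a library was left out. In E12.5 vs. E10.5 it was 3 at an adjusted p of at most 0.01 and 3 to 7 when a library was left out, with 4 without E10.5 replicate 2 and 3 without E12.5 replicate 1 or 2. For the difference between intervals it was 2 without the count filter (Etv4 and Fgfr3), 1 with the GC trend removed (Etv4) and 0 to 1 when a library was left out. Receptor shares without overlap were 4 to 7 of 9 and paralog ratios 4 to 7 of 12 when a library was left out, with 7 without E10.5 replicate 3 and 7 without E12.5 replicate 2, respectively.

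Correlations between the deviations of same-numbered libraries ran from -0.151 to 0.22. In E12.5 vs. E10.5 they were 0.178, 0.07 and 0.22, while those of differently numbered libraries ran from -0.219 to 0.153. With 3 libraries per stage, these values cannot decide whether the numbers pair the libraries. With a replicate block, 2 genes were DEGs in E12.5 vs. E10.5, and with the block and the GC trend removed, 2 were DEGs there, 2 passed in the first interval and 1 in the difference between intervals. With 3 libraries per stage, no permutation test could go below 0.1.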
